A study of Mus musculus with 11 samples.

Results

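Ephrin-A ligands and their EphA receptors were examined in the main olfactory epithelium (MOE), where the olfactory sensory neurons (OSNs) lie, of mice with and without the zinc finger transcription factor Bcl11b. The genes were the 5 ephrin-A genes Efna1 to Efna5 and the 4 receptor genes Epha3, Epha4, Epha5 and Epha7. They are 9 of the 18194 genes that have a probe set of their own on the array. They were chosen as a family with a known part in axon sorting and not by their signal, though with earlier results of these data known. Every probe set (the group of oligonucleotides that reads one transcript on the array) that the platform annotation assigns to exactly 1 of these symbols was taken, which gave 26 of 45101 probe sets, 9 for ligands and 17 for receptors, numbered here within each gene from the brightest. Whole MOE was dissected at postnatal day 0 from 6 Bcl11b KO mice, with a conventional knockout of both alleles that removes the gene in every tissue, and from 5 wild type (WT) mice. The mice were labelled BALB/c and came from crosses of heterozygous parents. All WT mice and KO replicates 1, 2, 4 and 5 were male, and KO replicates 3 and 6 were female. Each preparation was hybridised to its own Affymetrix mouse expression array, and signals are on a linear scale on which the authors set a GAPDH probe set to 10000 on every array.

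Ephrin-As are ligands held on the cell surface by a lipid anchor, and EphA receptors are receptor tyrosine kinases on the facing cell. Contact between them usually makes a growing axon turn away, and signals run both into the cell with the receptor and into the cell with the ligand. In the mouse olfactory system, OSNs vary in their ephrin-A and EphA5 levels with the odorant receptor they express, and these proteins help the axons to sort into glomeruli of the olfactory bulb. The comparison asked whether any member of the family was transcribed at a different level in the MOE when Bcl11b was missing.

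None of the family's probe sets that could be tested passed. Probe sets with a mean signal of at least 20 over the 11 arrays were tested, which left 22 of the 26 (8 for ligands and 14 for receptors); the other 4 were too dim. Of these 22, 0 were called higher and 0 lower in KO (limma, Benjamini-Hochberg adjusted p under 0.05), beside 0.455% of the 33662 probe sets tested in all (0.244% higher and 0.211% lower). At an unadjusted p under 0.05 the count was 3, or 13.6%, beside 6.92% over all (4.47% higher and 2.45% lower). Both the members' count and this background varied with the fit. The count was also 3 beside 12.5% with array weights, 10.3% without KO 3 and 14% without KO 2 and KO 3. It was 5 beside 7.68% after array median scaling and 6 beside 9.36% after quantile normalization. Without KO 5 and KO 6 it was 6 beside 6.24%, and among arrays with more poly-A labelling control signal it was 2 beside 6.36%. The 3 probe sets in the reported fit were 1 each of Efna3, Epha7 and Efna5. Those of Efna3 and Epha7 had negative log2 changes (KO minus WT) and that of Efna5 a positive one. The median log2 change was -0.02 over the 22 probe sets, beside 0.047 over all, and none reached a 2-fold change. In simulated data with the spreads of these arrays the same fit recovered 70% of those given a log2 change of 1 and 8% of those given 0.5, so changes of the sizes seen here were mostly below what it could call.

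**Figure D1:**
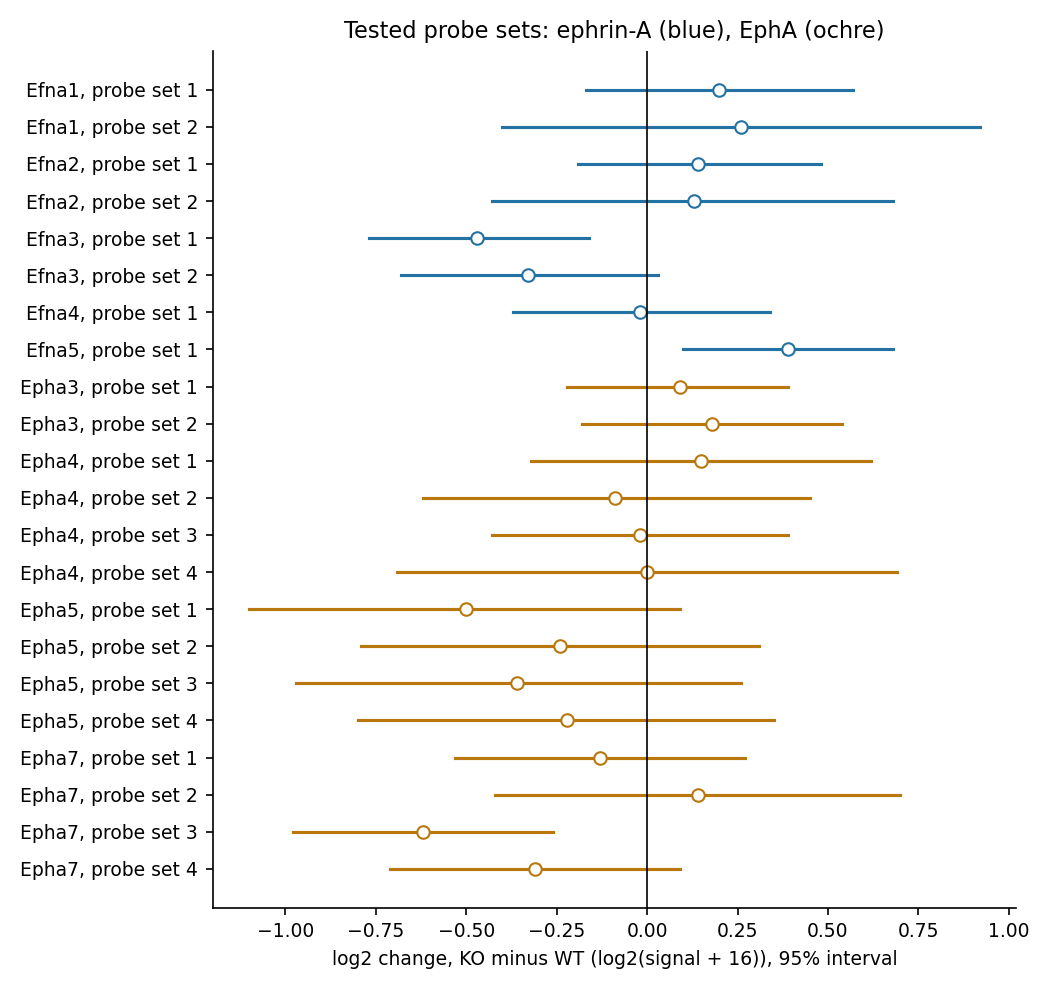
Log2 change of signal (KO minus WT, on the log2(signal + 16) scale) of each of the 22 tested probe sets, numbered within a gene from the brightest, where circles are limma estimates and lines 95% intervals, with ligands in blue and receptors in ochre. None of the 22 passed the threshold, and the intervals of Efna3 probe set 1, Efna5 probe set 1 and Epha7 probe set 3 lie clear of 0 before adjustment.

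Several properties of the preparations were measured beside these values. Bcl11b itself was lower on all KO arrays (560.5 to 1249.8) than on all WT arrays (2694.3 to 4122.7) on its brightest probe set, its log2 difference being -1.88 ± 0.172 (SE; limma, adjusted p = 1.2e-05), so every array matched its label. Of 7 tested mature OSN markers 4 fell and none rose, and their summed signal was 6040 to 8180 on KO arrays and 10800 to 14600 on WT arrays. Of 4 tested markers of neuronal precursors 2 rose (Neurog1 and Neurod1), and of 7 immature OSN markers none passed. In whole tissue, fewer cells of a type and less RNA per cell cannot be told apart. Of 3 tested erythroid markers 2 rose, the embryonic globins Hbb-y (log2 change 2.19; limma, adjusted p = 2.78e-05) and Hbb-bh1 (2.0; adjusted p = 0.00203). The third, Alas2, had 0.17 (limma, adjusted p = 0.943). The mean log2 signal of the list, both globins included, was 8.08 to 8.60 on KO arrays and 6.63 to 7.31 on WT arrays. Of 5 tested markers of olfactory ensheathing glia 0 passed, with summed signals of 3760 to 13200 on KO arrays and 4470 to 7990 on WT arrays. Some markers of olfactory bulb and forebrain neurons were high on KO 5 and, less so, on KO 6. Gad1, which makes the transmitter GABA, read 829.6 on KO 5 and 223.7 on KO 6, against 8.7 to 65 on the other KO arrays and 9.1 to 114.5 on WT arrays. The homeobox gene Dlx1 read 375.5 and 91.3 on KO 5 and KO 6, against at most 39.5 on any other array. Tbr1 was not confined to these arrays. It read 41.7 to 148 on every KO array but KO 3 (27.9), against 2.3 to 30.5 on WT arrays. The log2 change of Tbr1 was 1.16 (limma, adjusted p = 0.15), and that of Neurod6 was 0.88 (limma, adjusted p = 0.33). Over the whole list of 9 tested bulb and forebrain markers the median log2 change was 0.47, with 6 positive and 3 negative estimates. Their summed signal was 3200 to 4910 on KO arrays and 4020 to 5260 on WT arrays, most of it from Calb2 and Slc17a6. Of the 9 only Calb2 passed, and it was lower in KO (-0.56; limma, adjusted p = 0.0385), while Gad2 (-0.05) and Slc17a6 (-0.04) had estimates near 0. Which cells of the tissue gave the Calb2 and Slc17a6 signals was not tested. KO 3 and KO 2 had the highest GAPDH 3'/5' ratios (2.70 and 2.42, against 1.82 to 2.27 on the others), a measure of how far cRNA fell short of the 5' end.

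**Figure D2:**
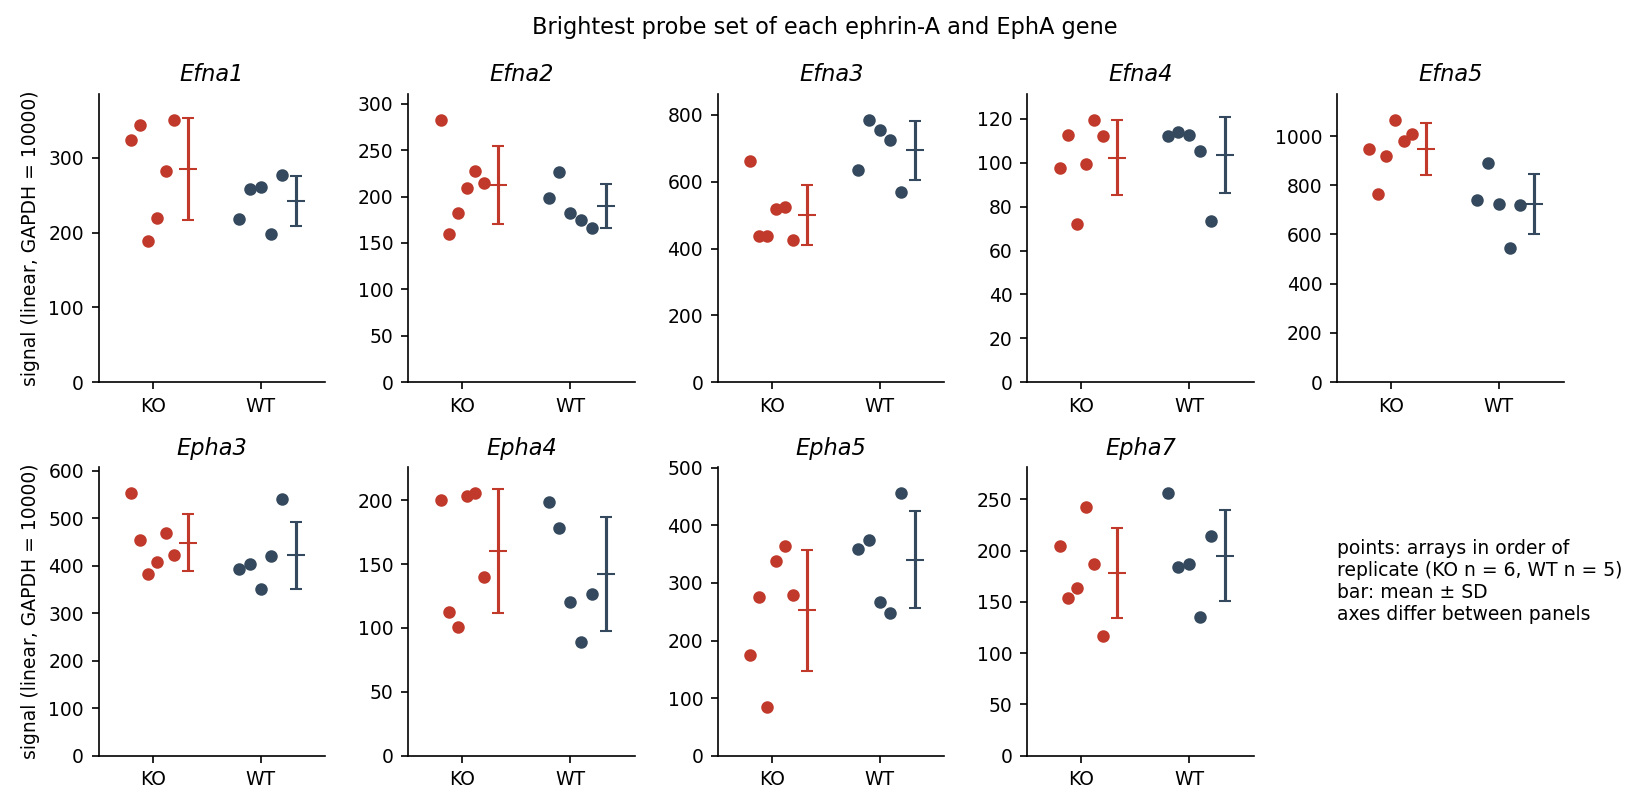
Signal (linear scale, GAPDH probe set at 10000) of the brightest probe set of each gene on every array, KO (red, n = 6) left of WT (dark blue, n = 5); points run in order of replicate number, bars are mean ± SD, and each panel has its own axis. For Efna3, 5 of 6 KO arrays lie below all WT arrays, and for Efna5, 5 of 6 lie above all WT arrays, while the groups overlap in every panel.

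Among the ligands, Efna3 had the most negative estimate. Ephrin-A3 is carried by OSN axons in the mouse and acts with ephrin-A5 in placing glomeruli. The brightest Efna3 probe set read from 424.2 to 663.1 on KO arrays, with a median of 477.9, against 634.2, 785.6, 753.4, 725.7 and 569.9 on WT arrays. The KO arrays lay below all WT arrays except KO 1, which was above 2 of them. Efna3 averaged 501 ± 90.6 in KO (SD, n = 6) and 694 ± 89.3 in WT (SD, n = 5). The log2 difference was -0.47 ± 0.146 with a 95% interval from -0.77 to -0.16 (SE; limma, adjusted p = 0.309). The second Efna3 probe set had the same layout. It read 704.5 on KO 1 and 352.3 to 467.2 on the other KO arrays, against 478.7 to 729.5 on WT arrays, and its log2 change was -0.33 ± 0.167 (SE; limma, adjusted p = 0.779).

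The sign of Efna3 was the same on both probe sets under each of the 28 alternative fits, with estimates for the brightest from -0.66 to -0.36. Scaling the arrays on spiked hybridization controls in place of GAPDH gave it an adjusted p of 0.035 (limma), while the median of all probe sets then moved to -0.13. Mature OSN markers summed to less on every KO array, KO 1 included, than on any WT array. Their part in the Efna3 values was not tested. With the 2 sets of arrays that differed in their poly-A labelling controls taken apart, the estimate was -0.52 in the set with more control signal (3 KO, 2 WT) and -0.42 in the other (3 KO, 3 WT).

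Efna5 had the largest positive estimate. Ephrin-A5 is the family's best studied ligand in axon targeting, where it repels axons that carry EphA receptors, and in OSNs it varies between neurons that express different odorant receptors. Its bright probe set read from 762.6 to 1066.1 on KO arrays, with a median of 963.7, against 741.8, 890.8, 725.8, 547 and 721.3 on WT arrays. All KO arrays but KO 2 were above all WT arrays. Fabp7, a fatty acid binding protein of ensheathing glia, was picked after its values were seen. It was likewise lowest among KO arrays on KO 2 and highest among WT arrays on WT 2. It read 5517, 2469.6, 8468.5, 8703.4, 8920 and 10421 on KO 1 to KO 6, against 2905.3, 6051.2, 3070.7, 2951.7 and 4445 on WT 1 to WT 5 (0.86; limma, adjusted p = 0.405). The glial marker Npy had 1.01 (limma, adjusted p = 0.666) and shared this layout only in KO. Npy was lowest among KO arrays on KO 2 (27.3), but among WT arrays it was highest on WT 5 (126.3) and read 80.1 on WT 2. Sox10, Frzb and S100b had 0.37, 0.21 and -0.23, and their single arrays were not set beside Efna5. Fabp7 differed from Efna5 in being highest among KO arrays on KO 6 and lowest among WT arrays on WT 1. The median signal of each array shared its lowest and highest array with Efna5 in both groups. These medians were 62 on KO 2 and 86.5 on KO 4, and 56.6 on WT 4 and 85.7 on WT 2. After array median scaling the Efna5 estimate was 0.34 (limma, adjusted p = 0.3). The part of glia in the Efna5 values was not tested. The Efna5 means were 947 ± 104 in KO (SD, n = 6) and 725 ± 122 in WT (SD, n = 5). The log2 change of Efna5 was 0.39 ± 0.137 with a 95% interval from 0.10 to 0.68 (SE; limma, adjusted p = 0.438). Its estimate was positive under each of the 28 alternatives, from 0.19 after scaling on spiked controls to 0.47 without KO 2 and KO 3, and passed under none. The other Efna5 probe set was dim, at 8.1 to 31.7 on KO arrays and 7.3 to 21.8 on WT arrays, and was not tested.

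The remaining ligands gave smaller differences. Ephrin-A1, known from blood vessels and epithelia as a ligand of EphA2, had Efna1 signals of 188.9 to 351 on KO arrays (median 303.4), against 217.8, 258.3, 260.9, 198 and 276.8 on WT arrays. Of the KO arrays 4 were above all WT arrays and KO 3 was below them all. The log2 change was 0.20 with a 95% interval from -0.17 to 0.57 (limma, adjusted p = 0.958). The dimmer Efna1 probe set had 0.26, from signals of 13.8 to 96.3 in KO and 14.9 to 55 in WT. Of 5 tested endothelial markers 0 passed.

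Ephrin-A2, which shares its role in mapping the retina onto the midbrain with ephrin-A5, had Efna2 signals of 159.9 to 282.8 on KO arrays (median 212.1), against 198.5, 226.5, 181.8, 175.2 and 166.3 on WT arrays, so that the groups overlapped over most of their range. Its log2 change was 0.14 with an interval from -0.19 to 0.48 (limma, adjusted p = 0.971), and that of its dimmer probe set was 0.13. The Efna2 estimate turned to -0.05 after scaling on spiked controls. Ephrin-A4, known for its part in the development of skull sutures, had Efna4 signals of 71.9 to 119.6 on KO arrays (median 105.9), against 112.3, 114.1, 112.8, 105.2 and 73.3 on WT arrays. The log2 change of Efna4 was -0.02 with an interval from -0.37 to 0.34 (limma, adjusted p = 0.997), and its sign turned under 8 of the 28 alternatives. Efna1, Efna3 and Efna4 lie in a row on chromosome 3 with no other protein-coding gene between them in RefSeq (GRCm38.p6). Their estimates were 0.20, -0.47 and -0.02, and the differences between these neighbours were not tested.

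Among the receptors, Epha7 had the smallest p of the family, but on only 1 of its 4 probe sets. EphA7 takes part in closing the neural tube and in mapping axons in the brain, and its gene is known to make truncated forms without the kinase as well as the full receptor. On its probe set 3 Epha7 read 67 to 93.4 on KO arrays, with a median of 74.2, against 100.2, 127.8, 150.6, 101.9 and 171.9 on WT arrays. The groups did not overlap, which held for 1 of the 22 probe sets (4.55%) and for 1.29% of all tested. The means were 78.2 ± 11.1 in KO (SD, n = 6) and 130 ± 31.1 in WT (SD, n = 5), and the log2 change was -0.62 ± 0.171 with a 95% interval from -0.98 to -0.26 (SE; limma, adjusted p = 0.181).

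The other Epha7 probe sets did not share this separation. The brightest read 116.9 to 242.8 on KO arrays (median 175.5), against 256.1, 183.8, 187.3, 135.3 and 214.2 on WT arrays, which gave an estimate of -0.13 with an interval from -0.53 to 0.27 (limma, adjusted p = 0.981). That estimate was 0.02 among males only. Probe set 2 had 0.14 and probe set 4 had -0.31, with intervals from -0.42 to 0.70 and from -0.71 to 0.09. Which transcript of Epha7 each probe set reads was not analysed here. On probe set 3 the estimate stayed between -0.80 and -0.44 under the 28 alternatives. It passed under 1 of them, the scaling on spiked controls (limma, adjusted p = 0.0259). Without KO 5 and KO 6 it was -0.58, and without KO 2 and KO 3 it was -0.62.

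**Figure D3:**
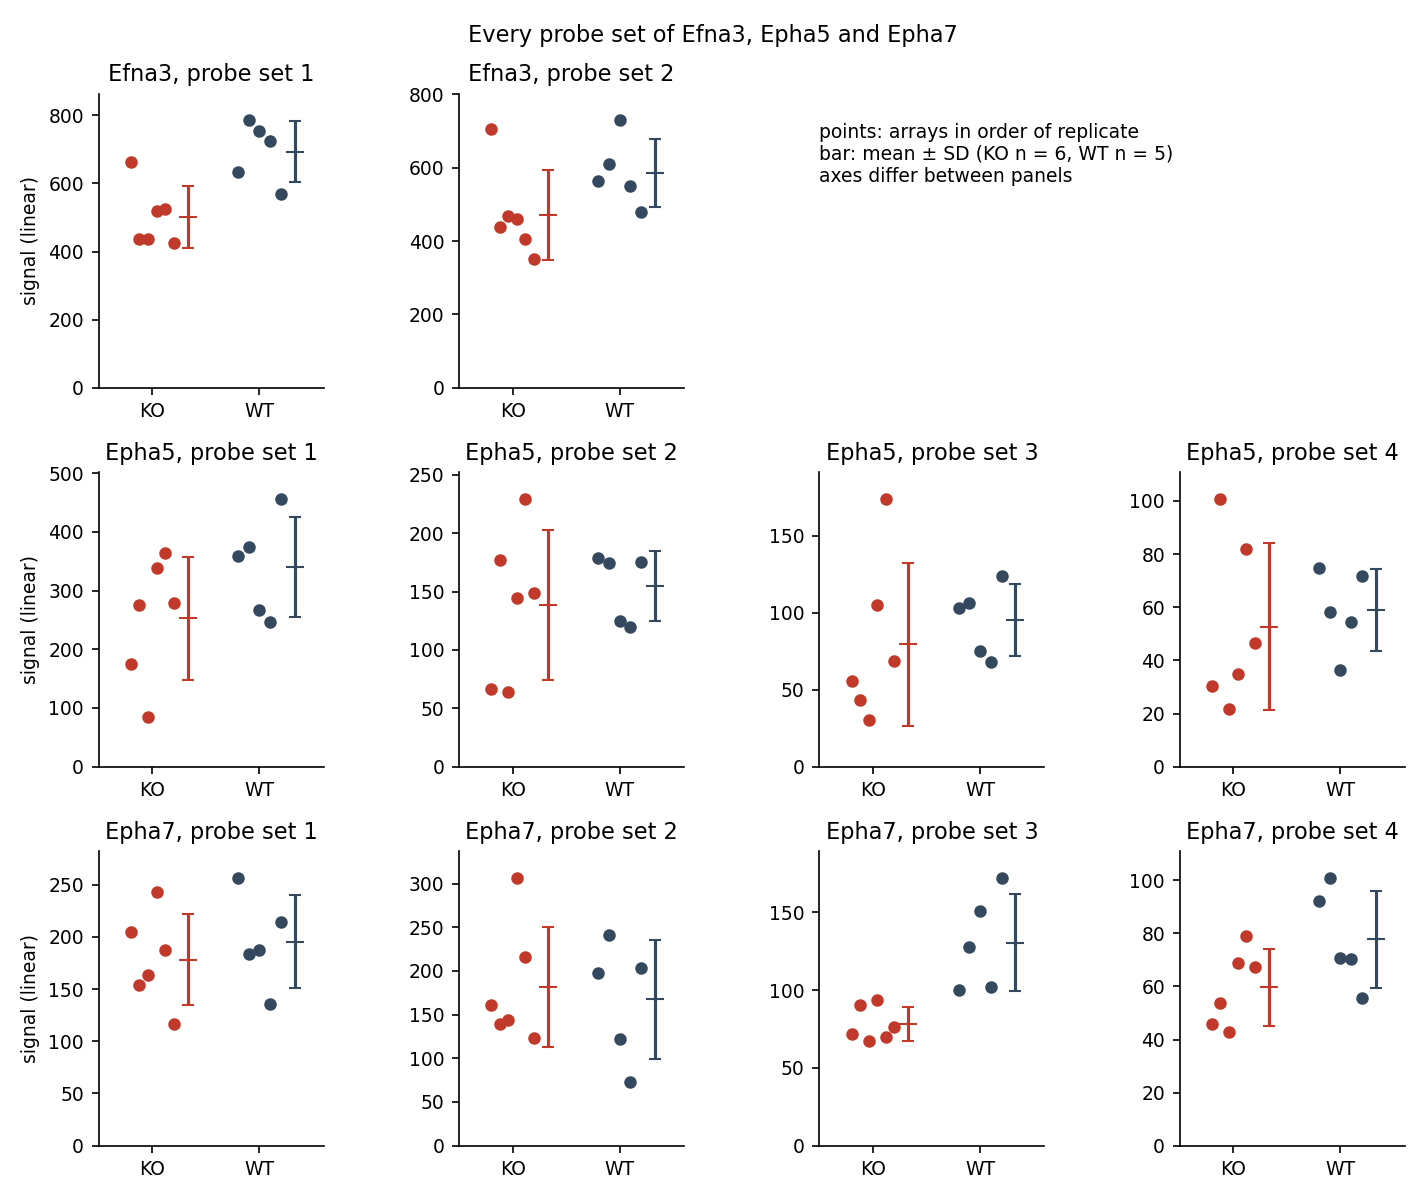
Signal (linear scale) of every probe set of Efna3, Epha5 and Epha7 on each array, KO (red, n = 6) left of WT (dark blue, n = 5); points run in order of replicate number, bars are mean ± SD, and each panel has its own axis. The KO and WT arrays are apart only on Epha7 probe set 3 (67 to 93.4 against 100.2 to 171.9), and the KO points of Epha5 spread from 84 to 363.9 on its brightest probe set.

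Epha5 had the widest standard error among the brightest probe sets of the 9 genes, with KO arrays far apart. EphA5 is found on OSN axons in the mouse, in complementary amounts to ephrin-A5, and on target neurons in the forebrain. Its brightest probe set read 84 to 363.9 on KO arrays, with a median of 277.3, against 359.1, 373.9, 267.6, 247 and 455.8 on WT arrays. KO 3 (84) and KO 1 (174.8) were below all WT arrays and the other 4 were within the WT range. The means were 253 ± 105 in KO (SD, n = 6) and 341 ± 84.9 in WT (SD, n = 5), and the estimate was -0.50 ± 0.284 with a 95% interval from -1.10 to 0.09 (SE; limma, adjusted p = 0.836). All 4 Epha5 probe sets had negative estimates, from -0.50 to -0.22, and KO 3 was the lowest array on each of them. The highest KO array was KO 5 on probe sets 1 to 3 and KO 2 on probe set 4.

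The size of the Epha5 estimate depended on which KO arrays were included. Without KO 3, which had the highest GAPDH 3'/5' ratio and came from a female, it was -0.24, and with males only it was -0.25. Without KO 5 and KO 6, the arrays with the highest Gad1 and Dlx1 signals, it was -0.73, and the adjusted p remained at 0.701 (limma). It was -0.16 among arrays with more poly-A control signal, which held KO 4, 5 and 6, and -0.89 among those with less, which held KO 1, 2 and 3. The parts of bulb neurons, RNA quality and labelling in the Epha5 values were not tested.

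For Epha3 and Epha4 the difference between the groups was within the spread of the arrays. EphA3, which guides motor and retinal axons and is also made in connective tissue, had Epha3 signals of 383.1 to 552.8 on KO arrays (median 438.6), against 393.3, 403.2, 351.1, 420.9 and 540.4 on WT arrays. Its log2 change was 0.09 with an interval from -0.22 to 0.39 (limma, adjusted p = 0.984). The second Epha3 probe set had 0.18, and both estimates turned slightly negative (-0.11 and -0.01) after scaling on spiked controls. Epha3 probe sets 3 and 4 were too dim to test, reaching at most 35.1 on any array.

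EphA4 is unusual in binding ephrins of both the A and B classes and keeps spinal axons from crossing the midline. Its brightest probe set read 101 to 205.4 on KO arrays (median 170), against 198.5, 177.9, 120, 89.1 and 126.5 on WT arrays, with KO 1, 4 and 5 just above the highest WT array. The log2 change of Epha4 was 0.15 with an interval from -0.32 to 0.62 (limma, adjusted p = 0.980), and it turned to -0.03 after scaling on spiked controls and to -0.05 among arrays with more poly-A control signal. With single arrays left out it ran from 0.02 (without WT 4) to 0.27 (without WT 1). Of the 4 tested Epha4 probe sets, the other 3 had estimates between -0.09 and 0.00. Probe set 4 of Epha4 read 93.7 on KO 5 and 75.6 on KO 6, the arrays with the highest Gad1 and Dlx1 signals. It read 12.3 to 50.4 on the other KO arrays and 24.6 to 87.8 on WT arrays. The signal of 87.8 was on WT 1, where Gad1 read 34.9 and Dlx1 1.6. The part of bulb neurons in this probe set was not tested. Probe set 5 of Epha4 stayed at or below 7.7 on every array.

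The intervals show what sizes of change remained possible. The bounds lay 0.29 (Efna5) to 0.69 (Epha4, probe set 4) from the estimate on the log2 scale. For Epha3 and Efna4 on their brightest probe sets the 95% intervals stayed within 0.39 of 0 in either direction, whereas for Epha5 the interval reached -1.10.

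**Figure D4:**
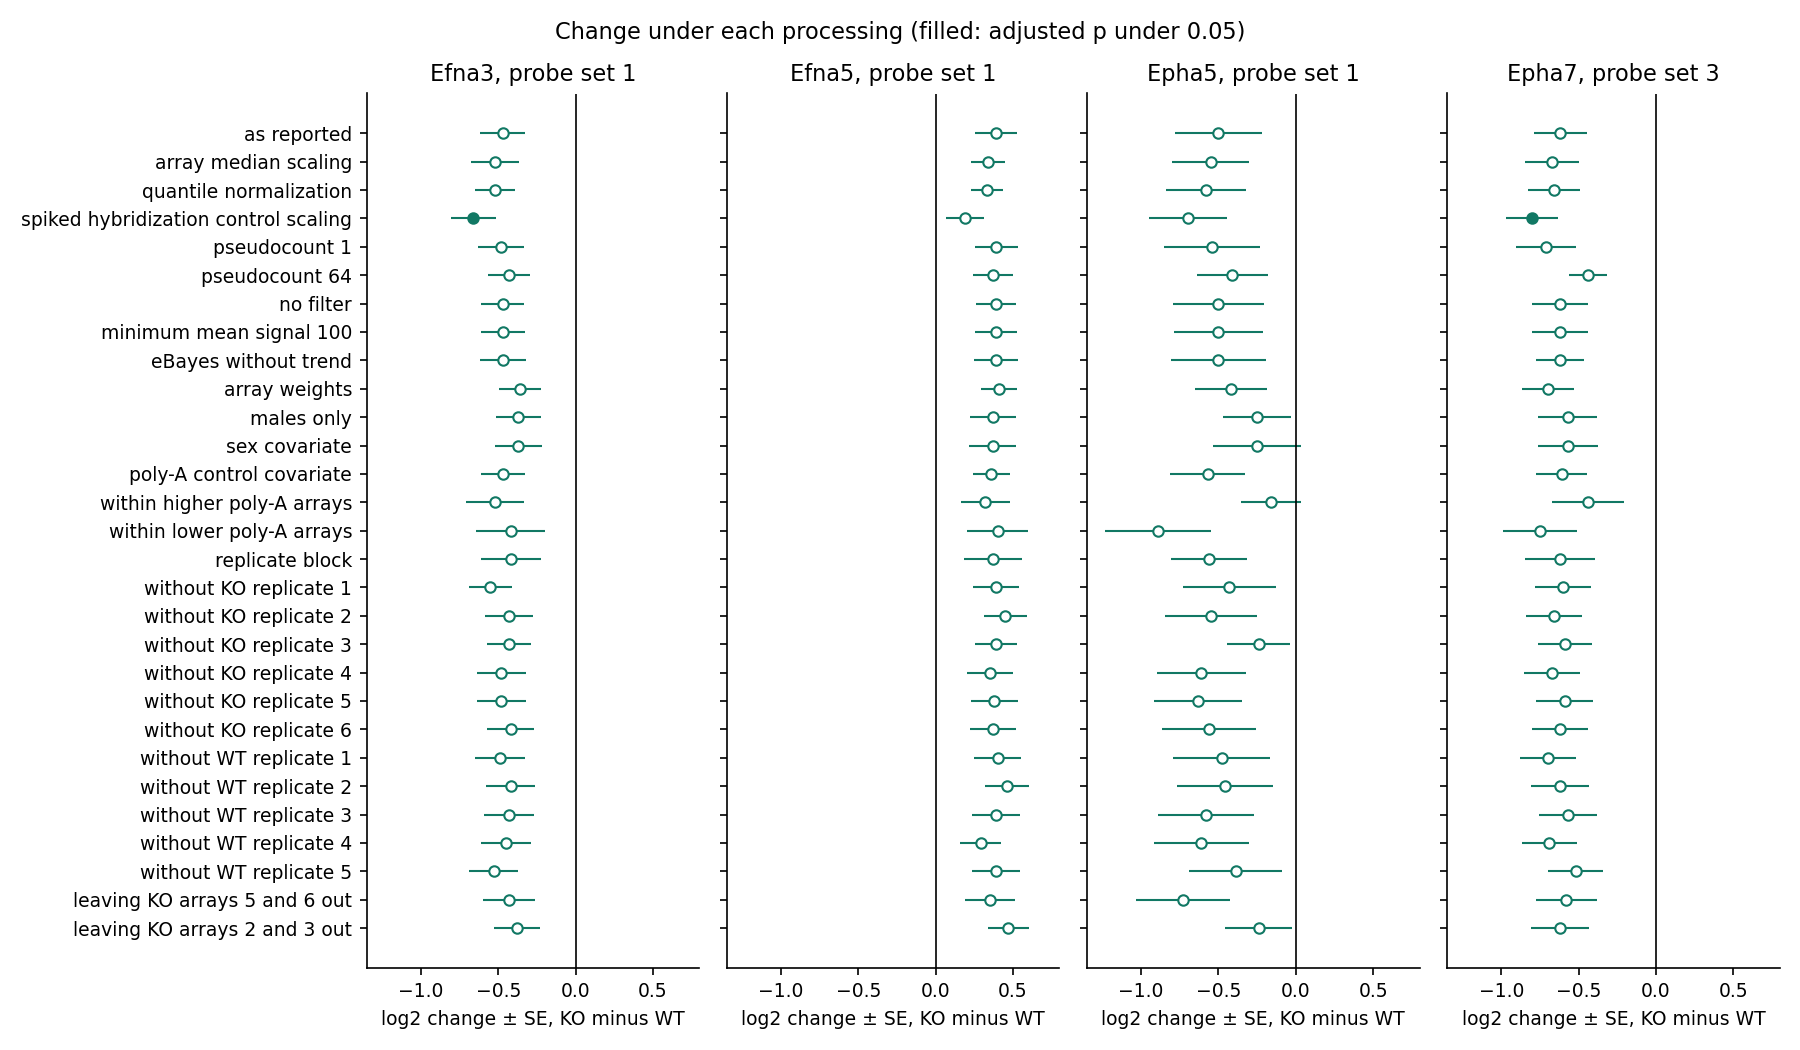
Log2 change ± SE (KO minus WT) of Efna3, Efna5, Epha5 (brightest probe sets) and Epha7 (probe set 3) as reported and under each of 28 alternative fits; filled points have an adjusted p under 0.05. Efna3 and Epha7 are filled only after scaling on spiked hybridization controls (-0.66 and -0.80), and the Epha5 points range from -0.89 to -0.16.

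Other parts of the pathway were measured on the same arrays, each gene by its brightest tested probe set. Of 9 tested genes for other Eph receptors and ephrins (Epha1, Epha2, Ephb1, Ephb3, Ephb4, Ephb6 and Efnb1 to Efnb3) 0 passed in either direction, with a median log2 change of 0.11. The smallest p was that of Ephb6, a receptor without kinase activity, at 0.34 ± 0.195 (SE; limma, adjusted p = 0.841). Of 23 tested effectors of EphA signalling within the cell 0 passed, with a median of 0.12. Src, a tyrosine kinase recruited by activated Eph receptors, had the smallest p there and an estimate of 0.52 ± 0.198 (SE; limma, adjusted p = 0.514). Ngef, the exchange factor ephexin that links EphA4 to RhoA and growth cone collapse, had 0.32 ± 0.177 (SE; limma, adjusted p = 0.834). The protease gene Adam10, whose product cuts ephrin-As from the membrane, had 0.01, and of this gene and the ephrin-A partners Ngfr, Ntrk2 and Ret none passed. Ret had the smallest p of the 4, at -0.25 (limma, adjusted p = 0.914).

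Of 17 tested genes for other molecules of OSN axon sorting and guidance 1 passed. This was Ncam2, an adhesion molecule of OSN axons, which fell to 111 ± 25.1 in KO (SD, n = 6), against 300 ± 160 in WT (SD, n = 5), an estimate of -1.21 ± 0.249 (SE; limma, adjusted p = 0.036). Pcdh10, a protocadherin whose level in OSNs varies with the odorant receptor, had -0.60 ± 0.231 (SE; limma, adjusted p = 0.534). The semaphorin receptor Nrp1 had -0.15, and Gap43, a protein of growing axons, had 0.01. The median of the 17 was -0.10, beside 0.047 over all probe sets.

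The genes whose signal most resembled Epha7 on its brightest probe set over the 11 arrays were Ahctf1, Zfp963 and Usp49, with Pearson correlations of 0.959, 0.932 and 0.913. These are the 3 highest of all tested probe sets with 1 gene symbol, over arrays that share the same scaling, and are given as a description.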

How the data were processed

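The deposited values were intensities on a linear scale, 1 per probe set and array. By the methods the RNA went through 2 amplification rounds, and the authors' linear scaling set a GAPDH probe set equal on every array. The submitters' processing notes name GCOS, whose version is not given in the sources used here. That probe set reads 10000 on all 11 arrays, so a difference in GAPDH would move every other value. Array medians were 62 to 86.5 in KO and 56.6 to 85.7 in WT.

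All 26 member probe sets had the same symbol in RefSeq (GRCm38.p6) through their Entrez identifiers. Intensities were used as log2(signal + 16), which understates changes of dim probe sets. Probe sets with a mean signal under 20 and the 64 control probe sets were left out. KO and WT were compared over the remaining 33662 in limma 3.58.1 (R 4.3.3; lmFit, eBayes with an intensity trend, no covariate), with Benjamini-Hochberg adjustment over all of them and a threshold of 0.05. Intervals are 95% from the same fit and not adjusted. Precision is limited by how many arrays there are, and p-values set the difference between KO and WT against the spread between preparations.

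Every member was named, with Bcl11b, the gene of smallest p and any gene past the threshold in each pathway list, and the 3 genes most like the member of smallest p; Ngef, Adam10, Pcdh10, Nrp1, Gap43 and the cell type markers were added after their values were seen. Members and lists were chosen with earlier results of these data known. Alternatives were other scalings, pseudocounts, filters, variance models, covariates and sample sets, among them 2 sets of arrays divided by their poly-A labelling control signal. Leaving out pairs of KO arrays was added after seeing the data. The fit was tested on simulated data drawn from these 33662 probe sets, with 50 changed by each of 4 sizes, and made 3 false calls in 92.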

Additional observations from a re-analysis of the deposited data

Results flagged for a closer look

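In 44 groups of arrays (22 tested probe sets in KO and in WT), 2 held an array far from the others by Dixon's test at the 95% level, which chance gives in about 1 group in 20. On the second Efna3 probe set KO 1 read 704.5, against 352.3 to 467.2 on the other KO arrays. Without KO 1 the log2 change of that probe set was -0.45, in place of -0.33 (limma, adjusted p = 0.414). On the Efna4 probe set WT 5 read 73.3, against 105.2 to 114.1 on the other WT arrays.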

How the results depend on the processing

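Over 29 alternatives the calls of the 9 genes on their brightest probe sets stayed as reported except that of Efna3 after scaling on spiked hybridization controls (-0.66; adjusted p = 0.035), where 2 member probe sets passed in place of 0. Signs turned for Efna2 (-0.05), Epha3 (-0.11) and Epha4 (-0.03) under that scaling, for Epha4 among arrays with more poly-A control signal (-0.05), for Epha7 with males only or a sex covariate (0.02 each), and for Efna4 with array weights (0.10), males only, a sex covariate or without KO 2 and KO 3 (0.05 each), and without WT 1, WT 2, WT 3 or KO 3 singly (0.01, 0.02, 0.01 and 0.07, in a range of -0.12 to 0.07 over single arrays left out). None of these estimates passed, and the causes were not tested. With single arrays left out the brightest probe sets ran from 0.06 to 0.21 for Efna2, 0.03 to 0.18 for Epha3, 0.02 to 0.27 for Epha4 and -0.24 to -0.02 for Epha7.

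The count of all probe sets past the threshold, 153 as reported, was 293 after quantile normalization, 347 on spiked controls (16.7% higher in KO, against 53.6%), 345 with array weights, 31 and 39 within the sets of more and less poly-A control signal, 95 without KO 5 and KO 6 and 284 without KO 2 and KO 3. Single arrays left out gave 85 (without WT 3) to 213 (without KO 2), with 97 without WT 5. The share of higher calls was 41% after quantile normalization, 65.2% with array weights, 67.4% with the replicate block, 62.7% with males only, 63.3% with a sex covariate, 66.1% without WT 2, 62.2% without KO 3, 62.1% without KO 5 and KO 6, 71.8% without KO 2 and KO 3, and 61.3% and 74.4% within the sets of more and less poly-A control signal.

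With the replicate number as a block, over 5 pairs, 92 probe sets passed and no member did. Arrays with the same number did not deviate together (correlations of -0.28 to 0.01). The labels name no pairing, and a check over so few pairs cannot exclude one. With this number of arrays, changes of 0.5 on the log2 scale were mostly not recovered in the simulated data (8%), which were not split by signal. KO 6 has no partner and was left out of the block fit.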
